A study of Mus musculus with 4 samples.

Results

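The genes described here copy DNA and supply its building blocks. They were chosen as a list of 49 gene symbols that cover origin licensing, the replicative helicase, origin firing, the sliding clamp and its loader, the polymerases and primase, fork and strand processing, and nucleotide supply. Of these, 47 were found among the 47445 genes of the tables by their symbol, and Gins2 and Cdt1 were not analysed here. RNA was sequenced from late 2-cell embryos of C57BL/6N mice in 2 libraries given an siRNA against Uqcc3 and 2 control libraries. UQCC3 is an assembly factor of mitochondrial respiratory complex III. It was injected at 5 µM and at 8 hpi, the labels' abbreviation, in an experiment on females aged 8 weeks, per the protocols in the labels. For the controls the protocols describe a non-targeting siRNA of equal dose and time, but their treatment label reads "none" and the design text calls them normal, so it is uncertain whether they were injected. A single siRNA was used against Uqcc3, embryos of normal shape were taken, and the sources used here do not state how many embryos made up a library. The question of the series is whether Uqcc3 has a part in embryonic development, and for these genes the comparison asks whether their RNA levels differ after Uqcc3 siRNA.

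Replication starts where the origin recognition complex and CDC6 load the MCM2-7 ring onto DNA. CDC45 and the GINS complex then turn that ring into the active CMG helicase once the DBF4-CDC7 kinase has acted, and geminin, encoded by Gmnn, blocks a further round of loading. Embryos at this stage hold RNA and protein partly inherited from the oocyte, while transcription of the embryo's own genome begins. RNA from whole embryos does not tell inherited RNA from newly made RNA, nor the cells of an embryo from each other.

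The libraries were not alike. Depth, taken from the error bounds deposited with each FPKM value (fragment numbers corrected for transcript length and sequencing depth), was about 11500000 and 11700000 fragments in the siRNA libraries and 16500000 and 18600000 fragments in the control libraries. siRNA replicate 2 stood apart: 9771 genes reached 1 FPKM there, against 11818 to 12202 in the other 3 libraries, and its correlation with them (Pearson's r of log2(FPKM + 1) across genes) was 0.624 to 0.651, whereas siRNA replicate 1 and the controls correlated at up to 0.875. Its value for Rn18s-rs5, a ribosomal RNA gene, was 14506 FPKM, against 183 to 1023 FPKM in the others. Mitochondrial transcripts made up 28.0% of the FPKM total in siRNA replicate 1, against 16.6% to 18.0% in the other libraries. The summed level of 9 transcripts typical of late 2-cell embryos was 778 and 440 FPKM in siRNA libraries and 1207 and 1494 FPKM in control libraries, and that of 8 oocyte transcripts was 1688 and 1289 FPKM in siRNA libraries and 1769 and 2086 FPKM in control libraries. Most of the oocyte sum was Oosp1, with 1401 and 859 FPKM in siRNA libraries and 1524 and 1795 FPKM in control libraries, and by log2 difference 4 of the 8 oocyte transcripts were lower and 4 higher, with a median of 0.15. Markers of cumulus and granulosa cells summed to at most 14.1 FPKM, those of sperm to at most 17.7, those of blood to at most 28.5 and those of blastocyst lineages to at most 16.3, and Fshr, Amh, Akap4, Hbb-bs, Cdx2, Krt8 and Sox17 were listed at 0 in all 4 libraries. The part of library quality and embryo stage in the differences below was not tested. Sample titles also end differently in the groups, and if that marks a batch, batch and group cannot be told apart.

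Uqcc3 itself (ENSMUSG00000071654.5, mm10 chr19:8880016-8880933, minus strand) stood at 23.7 and 19.8 FPKM in siRNA libraries and 147.5 and 211 FPKM in control libraries. The groups did not overlap, and the siRNA mean was 12.1% of the control mean (21.7 ± 2.73 against 179 ± 44.9 FPKM, SD, n = 2 each). On the log2(FPKM + 1) scale the difference was -2.97 (SE 0.63), with an adjusted p of 0.745 by limma with Benjamini-Hochberg adjustment over 12390 genes. The unadjusted limma p was 0.00168, the rank 4 among all genes tested.

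The replication genes spanned a wide range of levels. FPKM is scaled to transcript length, so levels can be set side by side between genes, but only roughly. Over all genes, differences in siRNA replicate 2 still moved with transcript length, and exons of 17 of the 47 genes overlap another annotated gene. Gmnn was the most abundant of the 47 genes in every library, with 639 and 598 FPKM in siRNA libraries and 959 and 789 FPKM in control libraries. It held 23.0% and 22.6% of the summed level of the 47 genes in siRNA libraries and 24.3% and 23.8% in control libraries. The same 5 genes, Gmnn, Tipin, Orc6, Orc4 and Dbf4, led in siRNA replicate 1 and in both controls, where they made up 65.5% to 70.1% of the sum, whereas in siRNA replicate 2 the order was Gmnn, Dbf4, Tipin, Orc6 and Rpa2 with 60.9%. At the low end, Pold1, the catalytic subunit of polymerase delta, was listed at 0 in siRNA replicate 1 and both controls and at 0.0249 FPKM in siRNA replicate 2. The 47 genes summed to 2781 and 2648 FPKM in siRNA libraries and 3948 and 3320 FPKM in control libraries. As a share of all FPKM the groups overlapped, with 0.467% and 0.607% in siRNA libraries and 0.578% and 0.477% in control libraries. The order of the 47 genes by level was close in siRNA replicate 1 and the controls (Spearman's rho 0.915 to 0.935 across genes) and less so between siRNA replicate 2 and any other library (0.675 to 0.707). These are descriptions across 47 genes that share each library's depth.

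**Figure D1:**
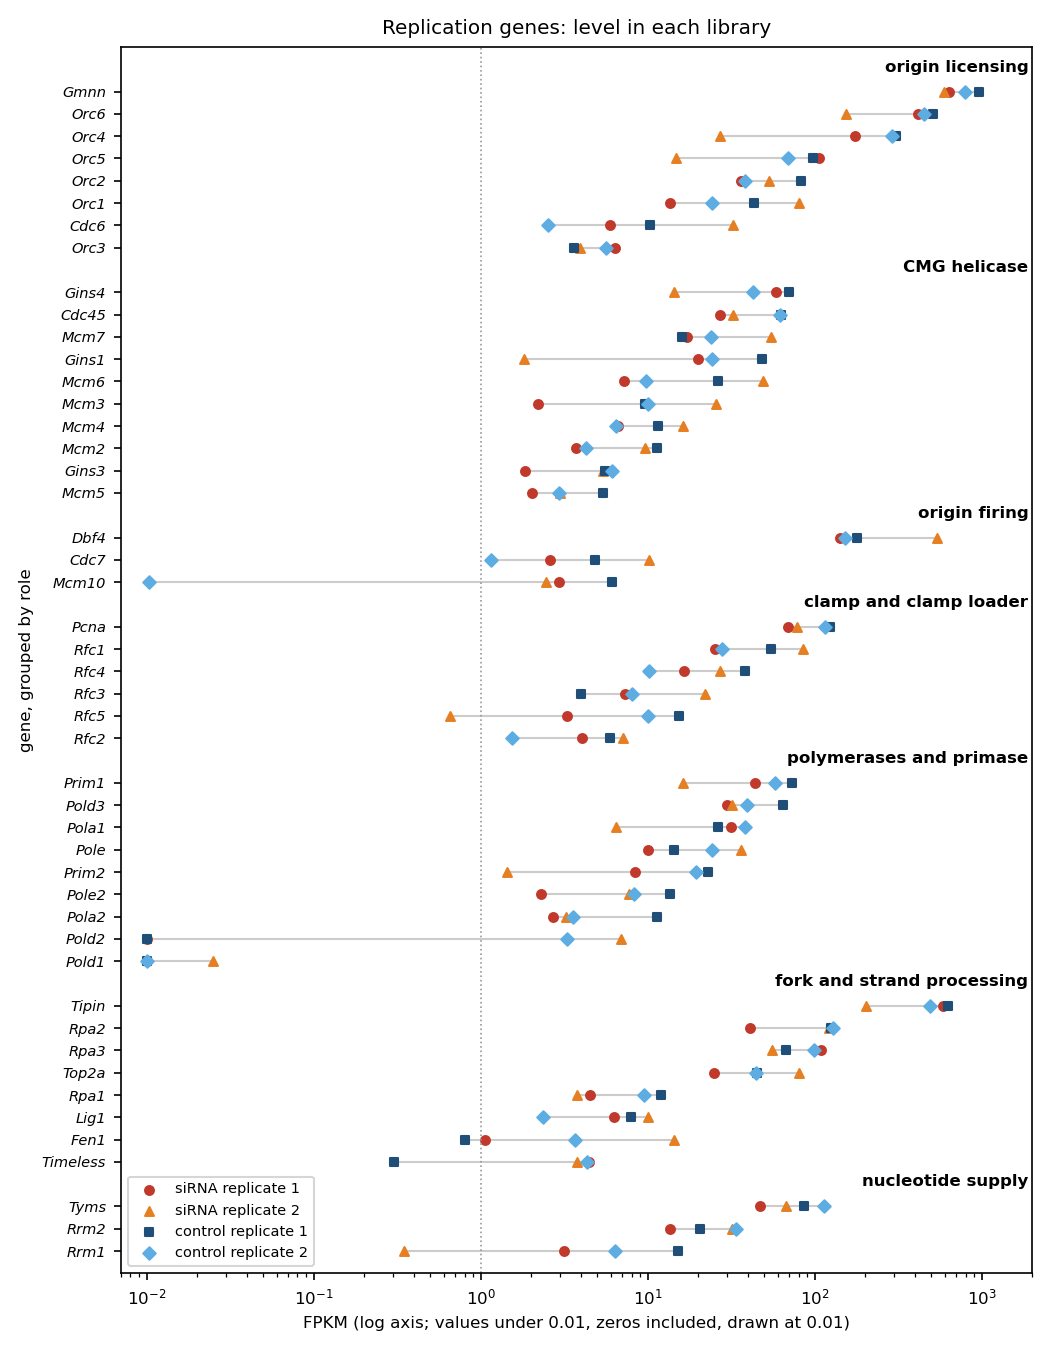
Level of each of the 47 genes in each library, as FPKM on a log axis, grouped by role and ordered by mean within a role; red circles and orange triangles are siRNA replicates 1 and 2, dark squares and light diamonds are control replicates 1 and 2. Gmnn is the rightmost gene in all 4 libraries, and the longest lines mostly end in siRNA replicate 2, as for Orc4 at 27.2 FPKM or Gins1 at 1.83 FPKM.

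The comparison covered genes that reached 1 FPKM in at least 2 libraries, which kept 46 of the 47 genes and left out Pold1. None of the 46 passed limma's test at an adjusted p of 0.05 with Benjamini-Hochberg adjustment over all genes (smallest 0.745), and none of the 12390 genes did (0%, smallest 0.564). At an unadjusted limma p under 0.05 stood 1 of the 46, Orc4, and 738 of all genes (5.96%), of which 646 were lower after siRNA (5.21% of all). With 2 libraries against 2, an exact two-sided permutation test of a single gene cannot give a p below 0.333. Nothing in the labels says that the libraries came from separate mice or injections, so a p-value here measures how these libraries spread, and that spread may be technical.

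Differences between group means ran both ways. Of the 46 genes, 27 had a lower mean and 19 a higher mean after siRNA on the log2 scale. The median difference was -0.34, close to the -0.39 of all genes tested. Both siRNA libraries lay below both controls for 17 of the 46 genes (37.0%), against 30.0% of all genes. Both siRNA libraries lay above both controls for 0 of the 46, against 8.60% of all genes. The 17 genes were Orc4, Orc6, Gmnn, Cdc45, Gins1, Gins3, Pcna, Rfc5, Prim1, Prim2, Pola2, Pold3, Pole2, Rpa1, Rpa2, Rrm1 and Tyms. Under each of 4 other scalings (TPM, median of ratios, quantile and cyclic loess), 6 to 8 of the 46 lay below both controls, against 18.5% to 21.4% of all genes, and 3 to 5 lay above, against 13.2% to 17.6% of all genes. Cdc45, Orc4, Prim2, Rfc5, Rpa1 and Rrm1 lay below under deposited FPKM and all 4 of these scalings. The share of all genes that did so was not computed, so this count cannot be set against a background.

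The siRNA libraries differed more from each other than the control libraries did. Across the 46 genes the median absolute log2 difference was 1.42 between siRNA replicate 2 and siRNA replicate 1, against 0.70 between the control libraries and 0.70 between the group means. For all genes tested the same 3 values were 1.28, 0.60 and 0.77. The value between group means averages 2 libraries on each side, so it is not measured like those between single libraries. Between a single siRNA library and the control mean, the value was 0.73 for replicate 1 (all genes 0.62) and 1.05 for replicate 2 (all genes 1.30). siRNA replicate 1 alone had a median difference from the control mean of -0.68 (all genes -0.30) and lay below both controls for 28 of the 46 genes (60.9%, all genes 48.3%) and above both for 4 (8.70%, all genes 20.6%). siRNA replicate 2 alone had a median of -0.09 (all genes -0.57), lay below both controls for 22 genes (47.8%, all genes 50.5%) and above both for 16 (34.8%, all genes 32.0%). The siRNA libraries stood on opposite sides of the control mean for 19 of the 46 genes (41.3%, all genes 42.9%). The controls differed too: control replicate 2 was lower than control replicate 1 for 32 of the 46 genes (69.6%, all genes 54.7%).

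With siRNA replicate 2 alone against both controls, limma called 6 of the 46 genes (13.0%) at an adjusted p of 0.05, against 11.9% of all genes. In that fit the lone library is assumed to vary as the controls do. Dbf4 was higher in siRNA replicate 2 (log2 difference 1.70, limma adjusted p 0.0444). The other 5, Gins1, Orc4, Prim2, Orc5 and Orc6, were lower (9.68% of all genes were called lower), with log2 differences of -3.64, -3.41, -3.18, -2.40 and -1.64 and limma adjusted p between 0.0221 and 0.0428. With siRNA replicate 1 alone against both controls, Gins1, Orc4, Prim2, Orc5 and Orc6 differed by -0.75, -0.78, -1.24, 0.37 and -0.22, and Dbf4 by -0.21.

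**Figure D2:**
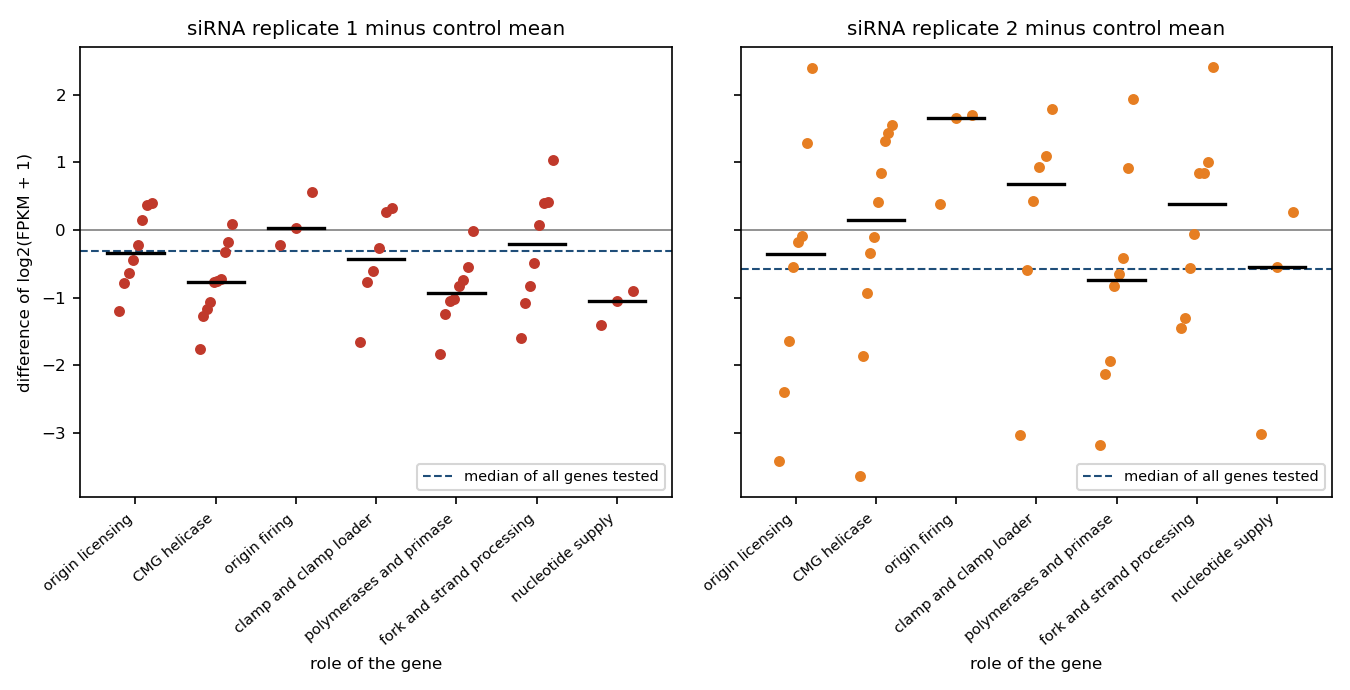
Difference of log2(FPKM + 1) between 1 siRNA library and the control mean for each of the 46 tested genes, grouped by role; the left panel is siRNA replicate 1 and the right panel siRNA replicate 2, points are genes, black bars role medians and the dashed line the median of all genes tested. In the left panel the points keep between -1.83 and 1.04, in the right panel they run from -3.64 to 2.40, and the role medians lie in a different order.

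Origin licensing covered 8 genes, the 6 subunits of the origin recognition complex, Cdc6 and Gmnn. The median log2 difference was -0.43, with 5 genes lower and 3 higher, and 3 of the 8 had both siRNA libraries below both controls (all genes 30.0%). Orc4 (ENSMUSG00000026761.12, mm10 chr2:48902824-48950277, minus strand), an ATPase-fold subunit of the complex, had 173 and 27.2 FPKM in siRNA libraries, against 306 and 290.5 FPKM in control libraries. Both siRNA libraries were lower, and siRNA replicate 2 was far below siRNA replicate 1. The log2 difference of Orc4 was -2.09 (SE 0.88, limma adjusted p 0.745, unadjusted p 0.0457). Exons of Orc4 overlap those of Acvr2a over 446 bases and of Mbd5 over 136 bases on the other strand, and no source used here says that strand was used in the estimates. Exons of 17 of the 47 genes overlap another annotated gene, for 13 of them on the other strand, and not every overlap is given here.

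Orc6, which encodes the smallest subunit, had 413 and 153 FPKM in siRNA libraries and 512 and 453 FPKM in control libraries. The groups did not overlap, and the gap of siRNA replicate 1 to the nearer control was smaller than that between the siRNA libraries (log2 difference -0.93, SE 0.67). Orc5 had 106 and 14.7 FPKM in siRNA libraries and 97.1 and 68.9 FPKM in control libraries. siRNA replicate 1 was the highest of the 4 and siRNA replicate 2 the lowest, so the difference of -1.01 (SE 0.95) rested on siRNA replicate 2 and was 0.37 without it.

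Cdc6, the ATPase that joins the origin complex to bring in the helicase ring, had 5.99 and 32.3 FPKM in siRNA libraries and 10.4 and 2.52 FPKM in control libraries. siRNA replicate 2 stood highest and siRNA replicate 1 lay between the controls (log2 difference 1.27, SE 1.12). Gmnn (ENSMUSG00000006715.11, mm10 chr13:24751845-24761923, minus strand) averaged 618 ± 28.7 FPKM in siRNA libraries and 874 ± 120 FPKM in control libraries (SD, n = 2 each). Its groups did not overlap, with a log2 difference of -0.49 (SE 0.58) as deposited, 0.00015 after quantile normalization and 0.42 after cyclic loess. The 3 other subunits overlapped between groups. Orc1, the largest ATPase subunit, had 13.6 and 80.9 FPKM in siRNA libraries and 43.1 and 24.4 FPKM in control libraries, with the siRNA libraries at both ends. Orc2 had 36.0 and 53.0 FPKM in siRNA libraries and 82.7 and 38.3 FPKM in control libraries. Exons of Orc2 share 1150 bases with Nif3l1 on the other strand. Orc3 stayed between 3.63 and 6.34 FPKM in all 4 libraries. The subunits of the complex were thus unequal in FPKM, with Orc6 above Orc3 by 65.2-fold and 39.1-fold in siRNA libraries and by 141-fold and 80.5-fold in control libraries.

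The CMG helicase covered 10 genes, the 6 MCM genes of the ring, Cdc45 and 3 GINS genes. Its median difference was -0.38, with 7 genes lower and 3 higher, and 3 of the 10 had both siRNA libraries below both controls (all genes 30.0%). The median was -0.76 for siRNA replicate 1 alone and 0.16 for siRNA replicate 2 alone.

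Cdc45 (ENSMUSG00000000028.14, mm10 chr16:18780447-18811987, minus strand), the factor that locks the ring into its active form, had 27.2 and 32.3 FPKM in siRNA libraries, against 62.9 and 61.6 FPKM in control libraries. Replicates were close within both groups and the groups lay apart. The siRNA mean of Cdc45 was 47.8% of the control mean (29.8 ± 3.64 against 62.3 ± 0.896 FPKM, SD, n = 2 each), with a log2 difference of -1.05 (SE 0.65, limma adjusted p 0.748, unadjusted p 0.146). Exons of Cdc45 share 209 bases with Ufd1 on the other strand. Gins1, a GINS subunit, had 19.9 and 1.83 FPKM in siRNA libraries and 48.3 and 24.2 FPKM in control libraries. Both siRNA libraries were lower, siRNA replicate 1 by little and siRNA replicate 2 with only about 9 fragments (log2 difference -2.20, SE 1.09, limma unadjusted p 0.0789). Fragment numbers here and below are derived from the deposited bounds and are uncertain for genes with several transcripts. Gins4 had 58.5 and 14.3 FPKM in siRNA libraries and 70.2 and 42.8 FPKM in control libraries, with siRNA replicate 1 between the controls. Gins3 had 1.83 and 5.38 FPKM in siRNA libraries and 5.57 and 6.09 FPKM in control libraries, with siRNA replicate 2 just under the lower control.

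The 6 MCM genes, whose proteins form the ring itself, overlapped between the groups. Summed over the 6, the level was 39.0 and 158.5 FPKM in siRNA libraries and 80.0 and 57.5 FPKM in control libraries, so siRNA replicate 1 was the lowest library and siRNA replicate 2 the highest. Mcm6 had the widest gap in FPKM between the siRNA libraries, with 7.19 and 49.1 FPKM there, against 26.2 and 9.80 FPKM in control libraries. Mcm3 had 2.19 and 25.8 FPKM in siRNA libraries and 9.59 and 10.0 FPKM in control libraries. Mcm7, with the highest mean of the 6, had 17.2 and 54.7 FPKM in siRNA libraries and 16.0 and 24.0 FPKM in control libraries. Here siRNA replicate 1 lay between the controls and siRNA replicate 2 above them (log2 difference 0.63, SE 0.82, and -0.18 without siRNA replicate 2). Exons of Mcm7 share 321 bases with Ap4m1 and 64 with Cops6 on the other strand and hold Mir25 and Mir93 on its own. Mcm4 had 6.68 and 16.4 FPKM in siRNA libraries and 11.5 and 6.49 FPKM in control libraries. Mcm2 had 3.73 and 9.69 FPKM in siRNA libraries and 11.4 and 4.25 FPKM in control libraries. Mcm5, the lowest of the 6 on average, had 2.04 and 2.98 FPKM in siRNA libraries and 5.42 and 2.93 FPKM in control libraries.

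Many replication genes are known targets of E2F transcription factors, so their promoters were searched for 3 E2F words, TTTGGCGC, TTTCGCGC and TTTCCCGC, on both strands in the 250 bases before the start site (RefSeq, GRCm38.p6). Promoter entries matched 39 of the 47 genes, with 48 promoters. At least 1 word was found in 9 of the 48 (18.8%), those of Cdc6, Gins3, Mcm5, Mcm6, Mcm7, Orc1, Orc3, Pola1 and Rfc3, against 504 of all 32851 promoters (1.53%). The word ATTGG, the reverse complement of the CCAAT box, was found on either strand in 25 of the 48 (52.1%), against 33.8% of all. A match is a description of the letters and not a bound site. The windows of 60 bases below show the words in genes of the licensing, helicase and polymerase groups, for comparison of their letters, each read 5′ to 3′ on the gene's strand with the E2F word in capitals. Mcm6 lies on the minus strand at chr1:128359782-128359841, Mcm5 on the plus strand at chr8:75109330-75109389, Cdc6 on the plus strand at chr11:98907987-98908046 and Pola1 on the minus strand at chrX:93632260-93632319. The Cdc6 window precedes its RefSeq start site but lies inside the span listed for the gene with its FPKM (chr11:98907801-98923940).
Mcm6: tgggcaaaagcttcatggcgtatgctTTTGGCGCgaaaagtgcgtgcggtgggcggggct
Mcm5: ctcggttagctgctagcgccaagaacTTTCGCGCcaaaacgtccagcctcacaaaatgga
Cdc6: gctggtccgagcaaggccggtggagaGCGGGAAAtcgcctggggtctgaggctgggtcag
Pola1: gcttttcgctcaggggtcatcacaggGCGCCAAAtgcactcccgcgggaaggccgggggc
The word begins 110 bases before the start site in Mcm6, 153 in Mcm5, 138 in Cdc6 and 138 in Pola1, and in Cdc6 and Pola1 it is read on the opposite strand. In Mcm6 and Mcm5 it overlaps a word on the other strand. The genes shown did not share a direction: siRNA replicate 2 was the highest library for Mcm6 and Cdc6 and the lowest for Pola1, and lay between the controls for Mcm5. Over all genes with a word, log2 differences between group means were 1.27 for Cdc6, 1.05 for Rfc3, 0.63 for Mcm7 and 0.24 for Mcm6. They were 0.12 for Orc3, 0.05 for Orc1, -0.53 for Mcm5, -0.68 for Gins3 and -1.08 for Pola1. Whether the words bear on these differences was not tested.

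Origin firing covered 3 genes, Dbf4, Cdc7 and Mcm10, with a median difference of 0.74 and none with both siRNA libraries below (all genes 30.0%) or above (all genes 8.60%) both controls. Dbf4 (ENSMUSG00000002297.15, mm10 chr5:8396973-8422716, minus strand), the activating subunit of the kinase, had 142 and 537 FPKM in siRNA libraries and 178 and 152 FPKM in control libraries. siRNA replicate 2 stood far above the others and siRNA replicate 1 just below both controls, so the log2 difference of 0.74 (SE 0.75) was -0.21 without siRNA replicate 2. Cdc7, the catalytic subunit, had 2.61 and 10.2 FPKM in siRNA libraries and 4.86 and 1.15 FPKM in control libraries, again with siRNA replicate 2 highest. Its partner Dbf4 exceeded it by 54.3-fold and 52.8-fold in siRNA libraries and by 36.7-fold and 132-fold in control libraries. Mcm10, which helps the helicase start unwinding, had 2.95 and 2.48 FPKM in siRNA libraries and 6.08 and 0.0103 FPKM in control libraries, the last resting on no whole fragment. The difference of 0.47 (SE 1.12) for Mcm10 was -0.93 without control replicate 2.

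The clamp group covered Pcna, the ring that tethers polymerases to DNA, and the 5 subunits of replication factor C, which opens that ring. The median difference was 0.16, with 2 genes lower and 4 higher, and Pcna and Rfc5 had both siRNA libraries below both controls (all genes 30.0%). Pcna (mm10 chr2:132249162-132253314, minus strand) had 69.4 and 78.6 FPKM in siRNA libraries, against 123 and 115 FPKM in control libraries. Replicates were close within each group and the groups did not overlap (log2 difference -0.68, SE 0.60, limma adjusted p 0.804), though the difference was 0.023 after cyclic loess. The near copy Pcna-ps2 was listed at 37.4 and 22.3 FPKM in siRNA libraries and 51.5 and 68.0 FPKM in control libraries, so the level of Pcna is uncertain where reads were split between them.

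Rfc5, a small loader subunit, had 3.29 and 0.653 FPKM in siRNA libraries and 15.5 and 10.1 FPKM in control libraries. Both siRNA libraries were far below both controls (log2 difference -2.34, SE 1.01, limma unadjusted p 0.0505), which was the lowest difference of the 46 genes. About 29 and 2 fragments lay behind the siRNA values of Rfc5 and 164 and 80 behind the control values, and its exons share 499 bases with Wsb2 on the other strand. Rfc3 had 7.36 and 22.1 FPKM in siRNA libraries and 3.98 and 8.02 FPKM in control libraries, with siRNA replicate 1 between the controls (log2 difference 1.05, SE 0.97). Rfc1, the large subunit, had 25.4 and 85.0 FPKM in siRNA libraries and 55.0 and 27.9 FPKM in control libraries, with the siRNA libraries at both ends. Rfc2 had 4.05 and 7.07 FPKM in siRNA libraries and 5.98 and 1.54 FPKM in control libraries, and its exons share 952 bases with Lat2 on the other strand. Rfc4 had 16.4 and 27.2 FPKM in siRNA libraries and 38.2 and 10.2 FPKM in control libraries, with both siRNA values between the controls.

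The polymerases and primase had a median of -0.999 over 8 tested genes, with 6 lower and 2 higher. This was the lowest median of the 7 roles with all libraries, but nucleotide supply was lower without siRNA replicate 2 (-1.05, against -0.93 for the polymerases and primase) and without control replicate 1 (-0.99 against -0.70). Both siRNA libraries lay below both controls for 5 of the 8 (all genes 30.0%), a count that was 1 or 2 under the 4 other scalings (all genes 18.5% to 21.4%). The median of the polymerases and primase was -0.93 for siRNA replicate 1 alone and -0.73 for siRNA replicate 2 alone. Prim2 (mm10 chr1:33453810-33669795, minus strand), the large primase subunit, had 8.37 and 1.44 FPKM in siRNA libraries and 23.0 and 19.5 FPKM in control libraries. Both siRNA libraries were lower and the controls were close to each other (log2 difference -2.21, SE 0.99, limma adjusted p 0.745, unadjusted p 0.0564). Prim1, which makes the RNA primer, had 44.0 and 16.3 FPKM in siRNA libraries and 73.0 and 57.5 FPKM in control libraries. The groups did not overlap (log2 difference -1.24, SE 0.74, limma unadjusted p 0.134).

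Pola1, the catalytic subunit of polymerase alpha, had 31.3 and 6.49 FPKM in siRNA libraries and 26.3 and 38.4 FPKM in control libraries. siRNA replicate 1 lay between the controls, and the difference of -1.08 (SE 0.91) was -0.02 without siRNA replicate 2. Its accessory subunit Pola2 had 2.72 and 3.25 FPKM in siRNA libraries and 11.4 and 3.57 FPKM in control libraries. Summed over these 4 genes of the polymerase alpha-primase complex, the level was 86.5 and 27.5 FPKM in siRNA libraries and 134 and 119 FPKM in control libraries, and the groups did not overlap. For leading-strand polymerase epsilon, the catalytic gene Pole had 10.1 and 36.1 FPKM in siRNA libraries and 14.3 and 24.4 FPKM in control libraries, with the siRNA libraries at both ends. Its second subunit Pole2 had 2.28 and 7.70 FPKM in siRNA libraries and 13.6 and 8.28 FPKM in control libraries, with siRNA replicate 2 just under the lower control. For polymerase delta, Pold3 had 29.9 and 31.9 FPKM in siRNA libraries and 64.6 and 39.3 FPKM in control libraries, without overlap. Pold2 was listed at 0 and 6.96 FPKM in siRNA libraries and at 0 and 3.30 FPKM in control libraries.

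The fork group covered 8 genes, with a median difference of -0.03, 4 lower and 4 higher, and both siRNA libraries below both controls for Rpa1 and Rpa2 (all genes 30.0%). Rpa1, the large subunit of the protein that coats single-stranded DNA, had 4.54 and 3.77 FPKM in siRNA libraries and 11.9 and 9.56 FPKM in control libraries. Replicates were close within each group and the groups lay apart (log2 difference -1.19, SE 0.91, limma unadjusted p 0.231), with about 22 and 63 fragments in siRNA libraries and 106 and 86 in control libraries. Rpa2 had 41.1 and 122 FPKM in siRNA libraries and 125 and 129 FPKM in control libraries, so siRNA replicate 2 was within a few FPKM of the controls. Rpa3 had 110 and 55.2 FPKM in siRNA libraries and 67.7 and 98.9 FPKM in control libraries, with the siRNA libraries at both ends.

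Tipin, which with Timeless protects the moving fork, was the second most abundant of the 47 genes on average, with 583 and 203 FPKM in siRNA libraries and 627 and 490.3 FPKM in control libraries. siRNA replicate 1 lay between the controls and siRNA replicate 2 below them (log2 difference -0.69, SE 0.69, and 0.07 without siRNA replicate 2). Timeless had 4.42 and 3.75 FPKM in siRNA libraries and 0.301 and 4.35 FPKM in control libraries, with control replicate 1 resting on about 1 fragment. Top2a, the topoisomerase that untangles daughter strands, had 24.8 and 80.7 FPKM in siRNA libraries and 45.1 and 44.4 FPKM in control libraries, with the siRNA libraries on either side of close controls. Fen1, the nuclease that trims Okazaki fragments, had 1.06 and 14.3 FPKM in siRNA libraries and 0.803 and 3.65 FPKM in control libraries, and its exons share 1909 bases with Gm10143 on the other strand. Lig1, which seals those fragments, had 6.24 and 10.0 FPKM in siRNA libraries and 7.93 and 2.37 FPKM in control libraries.

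Nucleotide supply covered Rrm1 and Rrm2, the large and small subunits of ribonucleotide reductase, and Tyms, thymidylate synthase. All 3 had lower means after siRNA as deposited (median -0.80), and Rrm1 and Tyms had both siRNA libraries below both controls (all genes 30.0%). Rrm1 (mm10 chr7:102441695-102469771, plus strand) had 3.15 and 0.348 FPKM in siRNA libraries and 15.3 and 6.34 FPKM in control libraries. Both siRNA libraries were lower, with a spread over 2-fold within each group (log2 difference -2.21, SE 1.07, limma unadjusted p 0.0742). Tyms had 47.3 and 67.5 FPKM in siRNA libraries and 86.8 and 113 FPKM in control libraries, without overlap (log2 difference -0.80, SE 0.63). Rrm2 had 13.6 and 31.9 FPKM in siRNA libraries and 20.5 and 33.7 FPKM in control libraries. The groups overlapped, and the difference of -0.32 (SE 0.79) was between 0.012 and 0.13 under the 4 other scalings.

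Compared by role, the medians depended on which siRNA library was used. Relative to the median of all genes in the same fit, the polymerases and primase lay at -0.61 with all libraries, -0.62 with siRNA replicate 1 alone and -0.16 with siRNA replicate 2 alone. Nucleotide supply lay at -0.41, -0.75 and 0.03 in the same order of fits. The CMG helicase lay at 0.01, -0.46 and 0.73, and the clamp group at 0.55, -0.13 and 1.26. Origin licensing lay at -0.04, -0.03 and 0.22, the fork group at 0.36, 0.10 and 0.96, and origin firing at 1.13, 0.33 and 2.23. Over all settings run, the polymerases and primase stayed below the median of all genes (-0.86 to -0.16), and origin firing (0.33 to 2.23) and the fork group (0.03 to 0.96) above it. No test was made of a role as a whole, and each holds 3 to 10 tested genes.

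**Figure D3:**
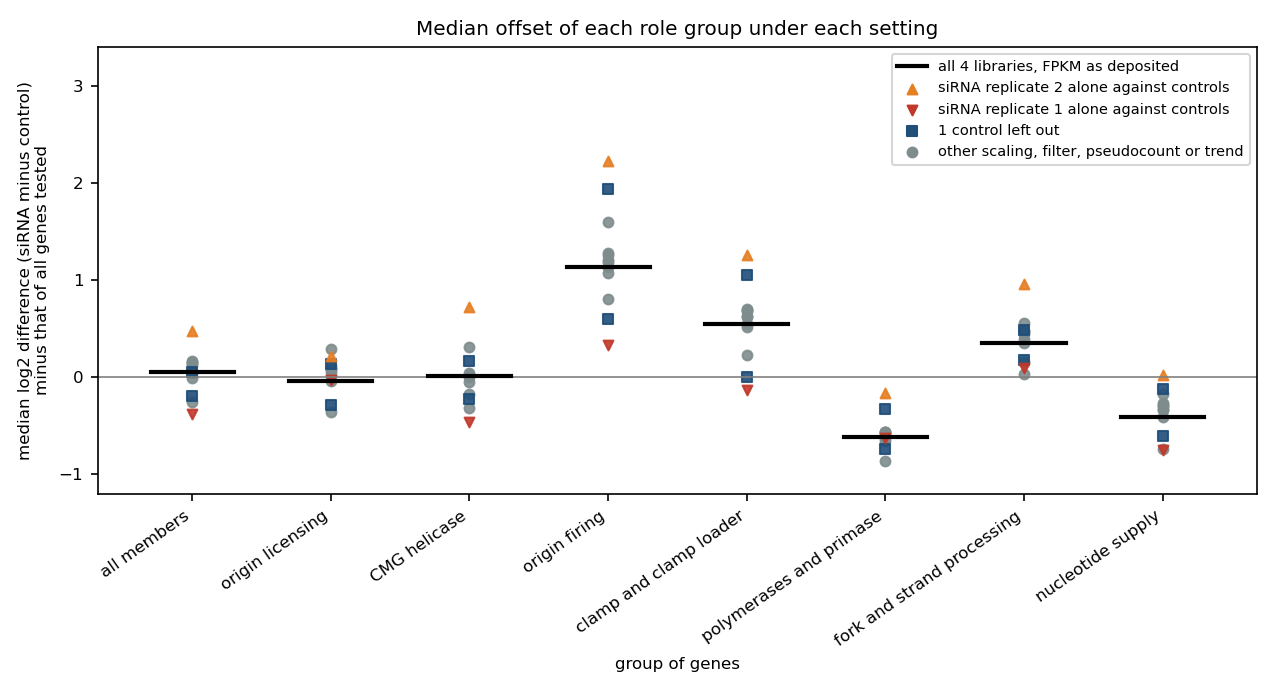
Median log2 difference (siRNA minus control) of all replication genes and of each role, minus the median of all genes tested in the same fit; black bars use all libraries and deposited FPKM, orange and red triangles 1 siRNA library alone, squares leave out a control and circles are the other settings. The polymerases and primase stay under 0 and origin firing stays over 0, whereas the CMG helicase runs from -0.46 with siRNA replicate 1 alone to 0.73 with siRNA replicate 2 alone.

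Over all genes, transcript length moved with the differences in siRNA replicate 2. Of all genes tested, those with the shortest longest-annotated transcripts (up to 1807 bases) had a median difference of -1.31 in siRNA replicate 2, those of middle length -0.38, and the longest (over 3629 bases) 0.16. The replication genes gave -0.56 over 9 short genes, -0.06 over 21 of middle length and 0.61 over 16 long genes. Gene by gene the relation was weak in the replication genes: Spearman's rho of length with the siRNA replicate 2 difference was 0.12 across the 46, against 0.33 across all genes with a length, as a description of genes that share 1 library. In siRNA replicate 1 the same medians were -0.34, -0.34 and -0.24 for all genes and -0.45, -0.73 and -0.69 for replication genes. The part of length in the differences of single genes was not tested.

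Other genes of the pathway were compared in the same fit. Of 26 further genes of nucleotide synthesis, 24 were tested and none passed the adjusted limma threshold. At an unadjusted limma p under 0.05 stood 2 of them (all genes 5.96%), both lower after siRNA, and 11 of the 24 had both siRNA libraries below both controls (all genes 30.0%) and 0 above (all genes 8.60%), with a median of -0.50. Dtymk, thymidylate kinase, had 55.9 and 20.4 FPKM in siRNA libraries and 135 and 106 FPKM in control libraries. Nme1, a nucleoside diphosphate kinase, had 24.1 and 12.2 FPKM in siRNA libraries and 69.5 and 51.5 FPKM in control libraries. Dctd, dCMP deaminase, had 35.8 and 10.2 FPKM in siRNA libraries and 58.4 and 55.9 FPKM in control libraries. In both siRNA libraries all 3 lay below both controls, with log2 differences of -1.79, -1.74 and -1.52 and unadjusted limma p of 0.0377, 0.0428 and 0.0948.

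Of 25 fork accessory factors, 21 were tested, none was under an unadjusted limma p of 0.05 (all genes 5.96%), 6 lay below both controls (all genes 30.0%) and 1 above (all genes 8.60%), and the median was -0.48. Fbxo5, the inhibitor of the anaphase-promoting complex also called Emi1, had 36.7 and 41.8 FPKM in siRNA libraries and 107 and 100.5 FPKM in control libraries. Clspn, the checkpoint mediator claspin, had 13.3 and 26.9 FPKM in siRNA libraries and 71.7 and 40.6 FPKM in control libraries. Both were lower in both siRNA libraries, with log2 differences of -1.39 (SE 0.62) and -1.46 (SE 0.74). Rnaseh2a, a subunit of the enzyme that removes ribonucleotides from DNA, had 6.93 and 0.0907 FPKM in siRNA libraries and 11.9 and 26.0 FPKM in control libraries, also without overlap. Its value in siRNA replicate 2 rested on no whole fragment.

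Of 16 E2F and pocket protein genes, 15 were tested, with 1 at an unadjusted limma p under 0.05 (all genes 5.96%), 3 below both controls (all genes 30.0%), 3 above (all genes 8.60%) and a median of 0.18. That gene was E2f6, a repressor of the family, listed at 0 in the siRNA libraries, against 2.37 and 2.07 FPKM in control libraries. E2f1, an activator of replication genes, had 6.13 and 66.2 FPKM in siRNA libraries and 4.71 and 4.04 FPKM in control libraries, both siRNA libraries being higher and siRNA replicate 2 far more so (log2 difference 2.03, SE 1.18). Tfdp1, the partner that E2F proteins need to bind DNA, had 4.19 and 0.303 FPKM in siRNA libraries and 16.3 and 7.40 FPKM in control libraries. Its value in siRNA replicate 2 rested on about 6 fragments. Of 7 replication checkpoint genes, all tested, 1 was at an unadjusted limma p under 0.05 (all genes 5.96%), 1 lay below both controls (all genes 30.0%) and 1 above (all genes 8.60%), and the median was -0.63. Rad1, part of the checkpoint clamp, had 7.60 and 0.909 FPKM in siRNA libraries and 23.6 and 24.3 FPKM in control libraries (log2 difference -2.62, SE 1.02, limma unadjusted p 0.0339). The Rad1 value in siRNA replicate 2 rested on about 8 fragments. Its clamp partner Hus1 had 13.0 and 4.05 FPKM in siRNA libraries and 12.6 and 13.6 FPKM in control libraries, with siRNA replicate 1 between the controls. Atr, the checkpoint kinase, had 4.59 and 3.49 FPKM in siRNA libraries and 1.46 and 2.98 FPKM in control libraries, higher in both siRNA libraries, with a log2 difference of 0.68 against 0.69 between the controls.

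**Figure D4:**
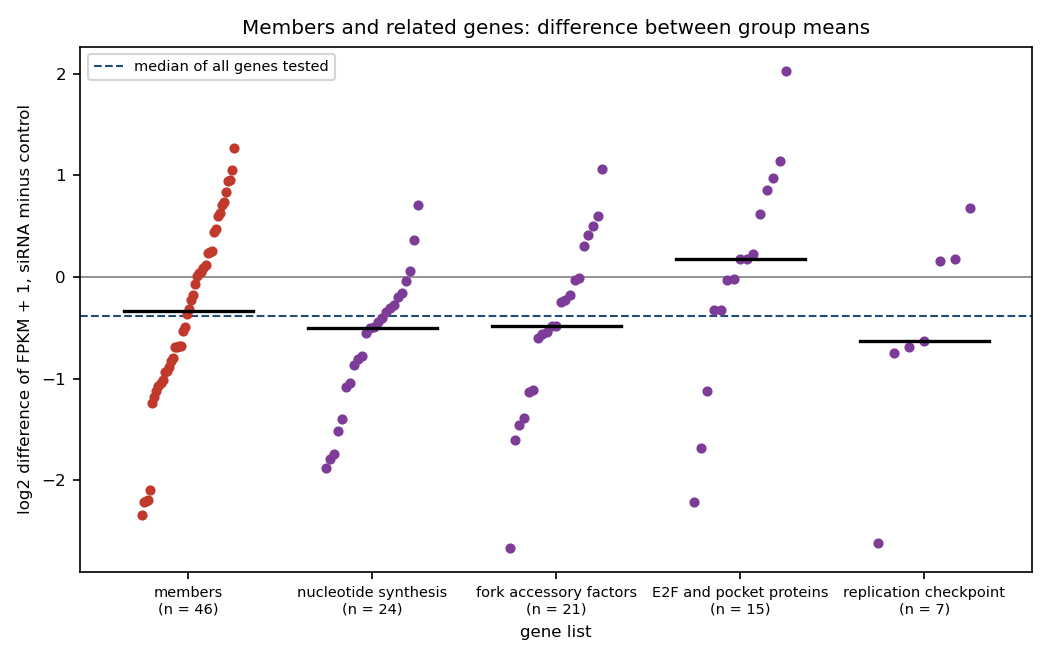
Difference between group means of log2(FPKM + 1), siRNA minus control, for the 46 replication genes (red) and 4 related lists (purple); points are genes in order of value, black bars medians and the dashed line the median of all genes tested. The medians of the replication genes, nucleotide synthesis and fork accessory factors lie between -0.50 and -0.34, near the -0.39 of all genes, and E2F and pocket proteins lie at 0.18.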

How the data were processed

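RNA was sequenced in 4 libraries (2 Uqcc3 siRNA, 2 control), grouped by their treatment labels. Per the labels' protocols, oligo(dT)-primed full-length cDNA was amplified over 18 cycles and the libraries over 15, and read in pairs of 150 bp. Per the submitters' processing notes, the tools were STAR 2.7.3a, Trim Galore 0.6.5, Cuffdiff 2.2.1, Cufflinks 2.2.1 and SAMtools 1.7, and the build was mm10. The authors deposited FPKM values with lower and upper bounds for each gene, per the file headers, and no counts were used. The sources used here do not state the annotation release. Gene identifiers matched GENCODE M21 for 99.1%, which gave lengths and overlaps.

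Rows of a gene were summed (50 identifiers). Fragments behind a value were derived from its bounds. They came out whole within 0.05 for 70.3% to 75.7% of genes with 1 transcript and up to 30 fragments. For genes with several transcripts this was not checked, and the derived numbers need not be counts of fragments there. Rpa1, with 5 transcripts, had 22 at 4.54 FPKM in siRNA replicate 1 but 63 at 3.77 FPKM in siRNA replicate 2, at similar depth. The derived numbers describe depth only and do not cover the spread between libraries. Pafah1b1 and Rif1, whose estimate failed in 1 library, were left out. Genes that reached 1 FPKM in at least 2 libraries were tested with limma 3.58.1 (R 4.3.3) on log2(FPKM + 1), two-sided, with an abundance trend and Benjamini-Hochberg adjustment over 12390 genes at 0.05. This scale understates changes of low genes. The test was also run on simulated data with planted drops and, for each gene, the same spread in every library. In the real data siRNA replicate 2 stood apart, so that run does not show which changes the test can find here. Tables were handled in Python 3.11.15 with pandas 2.3.3 and scipy 1.17.1, and figures drawn with matplotlib 3.10.9. Of each role the 4 genes with the smallest p and the 2 with the highest mean were to be named, and 3 of each related list. The other members are described for completeness. Promoters came from RefSeq GRCm38.p6, and windows over annotated exons were not shown. The members, lists and tests were chosen with earlier results of these data known. There were 12 alternatives, run one at a time: another pseudocount, no filter or one at 5 FPKM, 4 scalings, no trend, and each library left out.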

Additional observations from a re-analysis of the deposited data

How the results depend on the processing

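No paired analysis was possible because the labels carry no replicate numbers. All values here are for siRNA against control. Over all genes, the number at an unadjusted limma p under 0.05 was 738 in the main setting, 467 with a filter at 5 FPKM, 477 with TPM, 460 with median-of-ratios scaling, 462 with quantile normalization and 149 to 4146 with a library left out. The number at an adjusted p under 0.05 was 0 to 1477 with a library left out, all 1477 without siRNA replicate 1. For replication genes those adjusted counts were 0 to 6. The 1 replication gene at an unadjusted limma p under 0.05 became 0 with a pseudocount of 0.1, the filter at 5 FPKM and all 4 scalings. It became 3 with no trend. Over all genes that number was 603 with a pseudocount of 0.1, 513 with cyclic loess and 609 with no trend. The 17 genes below both controls became 8, 7, 7 and 6 with TPM, median of ratios, quantile and loess, and 19 to 28 with a library left out. The 0 genes above became 3, 4, 4 and 5, and 4 to 16. Of all genes, 18.5% to 21.4% lay below and 13.2% to 17.6% above under the 4 scalings. With a library left out, when 1 group is a single library, 41.9% to 50.5% of all genes lay below and 16.4% to 32.0% above. The median of -0.34 became 0.084, 0.073, 0.0063 and 0.18, and -0.68 to -0.092 with a library left out, while that of all genes (-0.39) became -0.08, -0.06, 0.01 and 0.03 under the 4 scalings. The polymerase median became -0.65, -0.62, -0.64 and -0.59, and -1.22 to -0.70. With loess, licensing lay at 0.32 and the fork group at 0.59. The sign turned for Gmnn (0.00015 quantile, 0.42 loess), Pcna (0.023 loess), Tipin (0.19 loess) and Rrm2 (0.10 TPM, 0.089 median of ratios, 0.012 quantile, 0.13 loess). With a library left out it turned for Orc5 (-2.40 to 0.37), Gins4 (-1.87 to 0.092), Mcm7 (-0.18 to 1.43), Dbf4 (-0.21 to 1.70), Mcm10 (-0.93 to 1.88), Rfc2 (-0.13 to 1.33), Rfc1 (-0.61 to 1.10), Tipin (-1.45 to 0.073), Timeless (-0.075 to 1.97) and Rrm2 (-0.90 to 0.27). The cause was not tested. Of the 42 named genes, Uqcc3 included, the others kept their sign in all 12 alternatives that tested them. Depth limits values that rest on few fragments, such as Rfc5, Rrm1, Rnaseh2a, Tfdp1 and Rad1 in siRNA replicate 2, Mcm10 in control replicate 2 and Timeless in control replicate 1.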
